A study of Mus musculus with 16 samples.

Results

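Selenbp1 and Selenbp2, the mouse genes of the selenium-binding protein family, were followed across liver and quadriceps of Klf15-null and wild-type mice. Every probe set that the platform annotation or the probe set's own RefSeq accession tied to either gene was taken, which gave 2 of the 22626 non-control probe sets of the Affymetrix Mouse430A_2 array. Probe set 1450699_at was designed on a Selenbp1 transcript. Probe set 1417580_s_at carries the symbol Selenbp1 in the annotation, while its accession is a Selenbp2 transcript in RefSeq, and its suffix s_at marks probes that match several transcripts. No probe set on the array carries the symbol Selenbp2, so transcripts of the pair cannot be told apart with 1417580_s_at, called the shared probe set from here on. The other, 1450699_at, is called the Selenbp1 probe set and is, by its accession, the measurement nearest to Selenbp1 alone. Probe sequences were not at hand, so whether its probes also match Selenbp2 transcripts was not checked. The genes were chosen with their signals on these arrays known, so their differences between knockout and wild type are given as a description, with no p-value.

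Each of 4 groups held 4 arrays, 1 per sample: Klf15-null (KO) liver, wild-type (WT) liver, KO quadriceps and WT quadriceps. All mice were females of 4 to 5 months that had fasted for 18 h before tissue was taken, so the WT groups were fasted as well. The KO samples are numbered 5 to 8 and the WT samples 1 to 4 in both tissues, and the labels do not say which samples came from separate animals. The p-values below therefore rest on sample-to-sample spread, which may be technical. How the null allele was made, and on which strain, the sources used here do not give.

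Selenium-binding protein 1 binds selenium covalently but is not a selenoprotein, since its selenium is not built in as selenocysteine. The human enzyme oxidizes methanethiol, a volatile breakdown product of methionine, and releases hydrogen sulfide, hydrogen peroxide and formaldehyde. Selenbp2 encodes the closely related acetaminophen-binding protein of mouse liver. Klf15 belongs to the Kruppel-like transcription factors, which bind GC-rich and CACCC-type sequences, and it is known for its part in amino acid breakdown and glucose production during fasting.

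The genes lie on chromosome 3, Selenbp2 at 94693573 to 94704406 and Selenbp1 at 94933083 to 94944758 of GRCm38.p6. They are 228.677 kb apart, and 3 protein-coding genes (Cgn, Pogz and Psmb4) lie between them. The promoters, taken from RefSeq as 250 bases before to 50 bases after each gene's start on the plus strand, are shown because they let the reader see how alike the start regions of the pair are. Selenbp1 is read at chr3:94932833-94933132 and Selenbp2 at chr3:94693323-94693622, 5′ to 3′, with the CACCC match in capitals.
Selenbp1: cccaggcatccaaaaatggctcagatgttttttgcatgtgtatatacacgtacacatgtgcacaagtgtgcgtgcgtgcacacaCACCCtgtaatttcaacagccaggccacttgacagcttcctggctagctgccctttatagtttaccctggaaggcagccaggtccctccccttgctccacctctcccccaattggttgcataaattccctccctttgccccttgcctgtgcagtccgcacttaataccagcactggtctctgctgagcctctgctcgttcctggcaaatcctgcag
Selenbp2: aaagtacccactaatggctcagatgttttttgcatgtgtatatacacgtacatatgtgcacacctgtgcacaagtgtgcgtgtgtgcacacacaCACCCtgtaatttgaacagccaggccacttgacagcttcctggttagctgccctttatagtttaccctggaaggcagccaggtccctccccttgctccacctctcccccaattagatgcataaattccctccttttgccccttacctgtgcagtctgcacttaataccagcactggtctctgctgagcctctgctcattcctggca
When aligned end to end, 272 of 288 paired bases were identical (94.4%), with 12 gap positions inside the alignment and 12 at its ends. The motif CACCC was found once in each promoter on the strand of the gene, 166 bases before the start in Selenbp1 and 156 bases before it in Selenbp2. It is a common motif, since on either strand it occurred in 57.5% of the 32851 promoters of the same length. TATAAA was found once in each on the opposite strand, 113 and 103 bases before the starts of Selenbp1 and Selenbp2, and occurred in 13.6% of all promoters. Searched on both strands, CCGCCC (a GC box, in 35.7% of all promoters) and AGAACA (a glucocorticoid receptor motif, in 19.0%) had no match in either promoter window. The CACCC and TATAAA matches do not overlap. The arrays measured transcripts and carry no information on binding at these sequences.

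The arrays were checked against the labels before the members were read. Klf15 averaged 165 ± 23.6 in KO liver and 1093 ± 195 in WT liver (SD, n = 4 each), and 57.3 ± 33.5 in KO quadriceps and 656 ± 95.0 in WT quadriceps. The differences were -2.60 (SE 0.14) in liver and -3.33 (SE 0.30) in quadriceps on the log2(signal + 16) scale, with limma adjusted p-values of 9.87e-08 and 3.09e-05. The 16 is a pseudocount that damps the noise of dim probe sets. Whether this Klf15 probe set lies within the deleted stretch is unknown here, so its remaining signal was not read. All 10 hepatocyte markers were above the filter for low signal (the 40th percentile of the mean signals, 25.1 in liver and 24.1 in quadriceps) in both liver groups, and all 10 myofibre markers were below it. In both quadriceps groups all 10 myofibre markers were above the filter. Of the 10 hepatocyte markers, 6 were below it in KO quadriceps and 7 in WT quadriceps. The brightest of them was Cyp2e1, a cytochrome P450, at 148 in KO quadriceps and 206 in WT quadriceps. Array 8 of KO quadriceps stood apart: it had a median deposited signal of 15.6, while the other 7 ran from 32.5 to 59.2. Its 100 brightest probe sets took 21.3% of all signal, compared with 16.2% or less elsewhere in the tissue. Its scan took place 3 days after that of the rest. Quadriceps medians differed by 3.79 times with array 8 and by 1.82 times without it, so the arrays of this tissue were scaled to a common median. Liver medians differed by 1.18 times, and liver signals were used as deposited. Fluidics station 1 handled every KO array and station 2 every WT array, and an effect of station cannot be told apart from one of genotype. In these bulk samples, fewer cells of a type and less RNA per cell cannot be told apart either.

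In liver, both probe sets gave lower signals in KO than in WT on every array. The shared probe set read 633, 805, 639 and 621 in KO liver arrays 5 to 8, against 1784, 2276, 1831 and 1784 in WT liver arrays 1 to 4. The Selenbp1 probe set read 541, 696, 511 and 485 in KO liver, against 1478, 1560, 1534 and 1396 in WT liver. The groups did not overlap with either probe set, and KO array 6 was the highest KO liver array with both. The lowest WT array was 2.22 times the highest KO array with the shared probe set and 2.01 times with the Selenbp1 probe set. Over all probe sets tested in liver, 6.75% had KO arrays wholly below the WT arrays, a share from which nothing is read here because the genes were picked on this contrast.

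The shared probe set averaged 674 ± 87.0 in KO liver and 1919 ± 239 in WT liver (SD, n = 4 each), so that KO liver held 35.2% of the WT signal. The Selenbp1 probe set averaged 558 ± 94.7 in KO liver and 1492 ± 72.6 in WT liver, and KO liver held 37.4%. On the log2(signal + 16) scale the KO minus WT differences were -1.49 (SE 0.11) and -1.40 (SE 0.11). The values placed the shared probe set at rank 78 and the Selenbp1 probe set at rank 84 of 13577 tested probe sets, counted from the most negative difference. The hepatocyte marker list, whose brightest member is the apolipoprotein gene Apoa1, summed to 73025 to 78742 in KO liver arrays and to 75502 to 79687 in WT liver arrays. The 5 erythroid markers on the array summed to 164 to 204 in KO liver and to 186 to 434 in WT liver. Of these only Alas2, the haem synthesis enzyme of red cell precursors, was above the filter, at 154 ± 18.0 in KO liver and 286 ± 142 in WT liver (-0.71, limma adjusted p = 0.133). The part of red cell RNA in the members' difference was not tested.

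In quadriceps, the members were dimmer than in liver, and KO arrays lay nearer to the low end of the array's range. After scaling, the shared probe set read 36.5, 34.8, 54.3 and 36.8 in KO quadriceps arrays 5 to 8, against 219, 251, 234 and 198 in WT quadriceps arrays 1 to 4. The Selenbp1 probe set read 10.6, 32.0, 30.3 and 42.2 in KO quadriceps, against 174, 208, 208 and 243 in WT quadriceps. The groups did not overlap with either probe set. The lowest WT array was 3.65 times the highest KO array with the shared probe set and 4.12 times with the Selenbp1 probe set. Of all probe sets tested in quadriceps, 6.57% had KO arrays wholly below the WT arrays, and again nothing is read from this share.

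The 2 probe sets differed in which KO quadriceps array was low. With the Selenbp1 probe set array 5 was the lowest, and it alone lay below the filter signal of 24.1, while with the shared probe set array 7 was the highest and the other 3 lay close together. The high scaled value of array 8 with the Selenbp1 probe set came from a deposited signal of 16.4 multiplied by 2.57. As deposited, the KO quadriceps signals ranged from 14.3 to 57.6 with the shared probe set and from 15.7 to 32.2 with the Selenbp1 probe set, against 184 to 293 and 195 to 243 in WT quadriceps, so the groups were also separate without scaling.

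The shared probe set averaged 40.6 ± 9.16 in KO quadriceps and 226 ± 22.4 in WT quadriceps (SD, n = 4 each), and KO held 18.0% of the WT signal. The Selenbp1 probe set averaged 28.8 ± 13.2 in KO quadriceps and 208 ± 28.0 in WT quadriceps, and KO held 13.8%. The differences on the log2(signal + 16) scale were -2.10 (SE 0.17) and -2.37 (SE 0.23), at ranks 8 and 6 of 13576 tested probe sets from the most negative. Without array 8 of KO quadriceps they were -2.07 (SE 0.17) and -2.51 (SE 0.21), and KO held 18.6% and 11.7% of the WT signal. Since KO signals were low here, the size depended on the pseudocount: with a pseudocount of 1 the differences were -2.46 and -2.95, and with 64 they were -1.47 and -1.56. The myofibre marker list summed to 76762 to 267157 in KO quadriceps arrays and to 82281 to 121591 in WT quadriceps arrays. The highest KO sum was that of array 8, and the other 3 KO arrays reached at most 121601. The myofibre differences were all positive with array 8 and ran from -0.09 to 0.01 without it. The 8 adipocyte markers on the array summed to 3132 to 7982 in KO quadriceps and to 4702 to 7094 in WT quadriceps, and 0 of the 7 tested passed. Adipoq, the fat cell hormone adiponectin, averaged 387 ± 293 in KO quadriceps and 745 ± 215 in WT quadriceps, a difference of -1.12 with a limma adjusted p of 0.201. All 7 tested adipocyte markers had a negative difference, with a median of -0.48. Array 8 again gave the highest KO sum, and without it the KO sums of 3132 to 4202 all lay below the WT sums. In the fit without array 8, 16.2% of all probe sets were lower, the background for every marker called without that array here. Adipoq (-1.55, limma adjusted p = 0.00139) was lower in it, as was Pck1, the gluconeogenic enzyme that fat cells also use (-0.63, limma adjusted p = 0.0379). The median of the 7 was -0.59. Lep, the hormone leptin, gave -0.83 with a KO mean of 19.1, below the filter, and is only described. The erythroid markers summed to 36.8 to 93.2 in KO quadriceps and to 61.0 to 70.0 in WT quadriceps. The 10 endothelial markers summed to 1182 to 1338 in KO quadriceps and to 1338 to 1473 in WT quadriceps. Every KO sum lay below every WT sum, by a narrow gap, and 0 of the 10 markers passed limma's test. Without array 8, Kdr, a growth factor receptor, was lower (-0.76, limma adjusted p = 0.0316). In that fit 6 of the 10 endothelial markers had a negative difference. Their list median was -0.21, beside a median of -0.23 over all probe sets. The macrophage markers summed to 1098 to 2129 in KO quadriceps and to 1179 to 1551 in WT quadriceps. Without array 8 the receptor Csf1r was lower (-0.52, limma adjusted p = 0.0499). Only 2 of the 8 tested macrophage markers had a negative difference in that fit, and the list median was 0.10. The part of other cell types in the members' quadriceps difference was not tested.

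**Figure D1:**
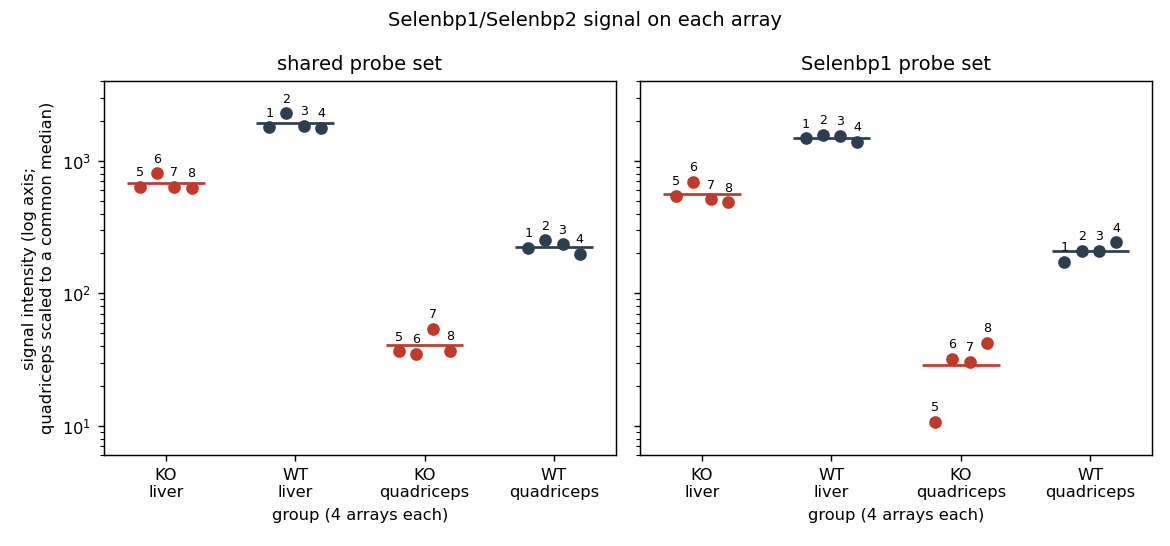
Signal of the 2 probe sets on each array (log axis, intensity units, quadriceps scaled to a common median), with KO left of WT in each tissue. Points carry the sample number and horizontal lines are group means of 4 arrays. The KO points lie below all WT points of the same tissue in both panels, with 621 to 805 in KO liver and 34.8 to 54.3 in KO quadriceps for the shared probe set.

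The order of the groups was the same with both probe sets: WT liver was highest, then KO liver, WT quadriceps and KO quadriceps, and no neighbours in this order overlapped. KO liver still held 2.99 times the WT quadriceps signal with the shared probe set and 2.68 times with the Selenbp1 probe set. The ratio of liver to quadriceps was 16.6 with the shared probe set and 19.4 with the Selenbp1 probe set in KO mice, and 8.51 and 7.17 in WT mice. Scaling all 16 arrays to 1 median gave ratios of 14.9 and 17.4 in KO mice and 7.71 and 6.49 in WT mice, and the order was kept. Among the signals of all 22626 probe sets, the shared probe set stood at percentile 90.7 in KO liver and 96.6 in WT liver, and at 50.2 in KO quadriceps and 79.7 in WT quadriceps. The Selenbp1 probe set stood at percentile 89.3 in KO liver and 95.7 in WT liver, and at 43.2 in KO quadriceps and 78.6 in WT quadriceps.

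The KO minus WT difference in liver less that in quadriceps was 0.62 (SE 0.21) for the shared probe set and 0.96 (SE 0.27) for the Selenbp1 probe set in log2 units, a positive value meaning that the difference was more negative in quadriceps. This size rested on the pseudocount, being 0.96 and 1.52 with a pseudocount of 1 and 0.045 and 0.23 with 64. Without array 8 of KO quadriceps it was 0.59 and 1.11. Of all probe sets tested, 1.86% differed in this way between the tissues at a limma adjusted p under 0.05, and nothing is read from that share for the members.

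**Figure D2:**
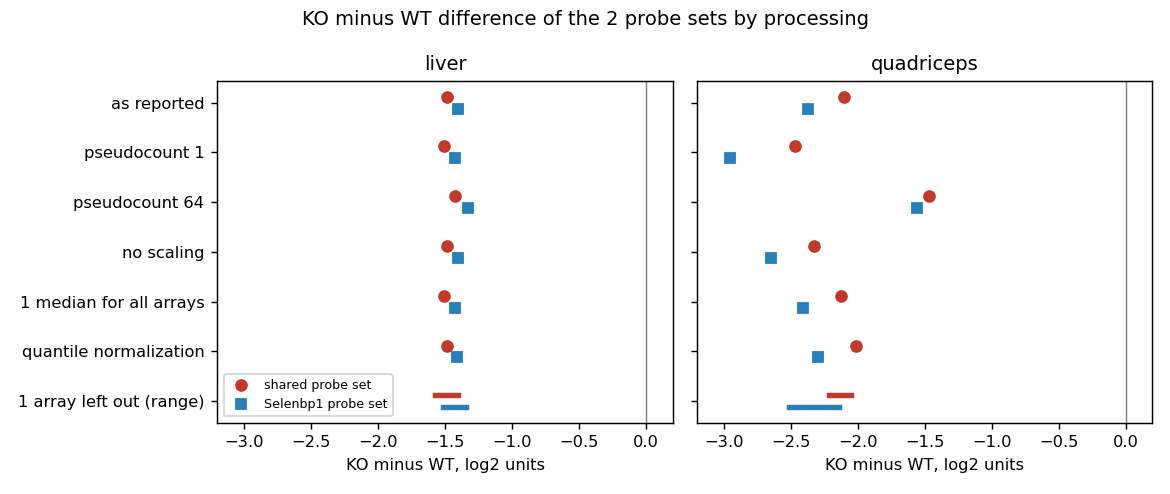
KO minus WT difference of each probe set in log2 units (horizontal axis) under each processing setting (rows), liver on the left and quadriceps on the right; bars span the values with 1 array left out. Liver values stay between -1.57 and -1.33, while quadriceps values run from -2.95 with a pseudocount of 1 to -1.47 with 64.

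The probe sets followed each other closely over the 16 arrays (Pearson r of log2(signal + 16) 0.990), a value to which the spread between the 4 group levels contributes. Between each array's deviations from its group mean, r was 0.253 over all 16 arrays, 0.806 over the 8 liver arrays and 0.036 over the 8 quadriceps arrays. In liver the arrays that were high with one probe set therefore tended to be high with the other, and in quadriceps they did not. The arrays of both probe sets are the same, so any array-wide shift is shared, and the 2 values are a description.

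The genes on other probe sets whose pattern was most like the members were taken from 6988 genes by Pearson r of log2(signal + 16). Over 16 arrays the 5 most like the shared probe set were Echs1, a mitochondrial enoyl-CoA hydratase (r = 0.984), Acy1, an aminoacylase (0.982), Gcdh, glutaryl-CoA dehydrogenase (0.979), Kyat3, a kynurenine aminotransferase (0.977), and Pxmp2, a peroxisomal membrane protein (0.975). The 5 most like the Selenbp1 probe set were Acy1 (r = 0.981), Hsd17b10, a mitochondrial dehydrogenase of isoleucine breakdown (0.975), Echs1 (0.974), Pxmp2 (0.974) and Aldh2, mitochondrial aldehyde dehydrogenase (0.974). Of the 7 genes named, 3 were shared. Kyat3 averaged 655 ± 131 in KO liver and 1869 ± 229 in WT liver, and 40.1 ± 9.14 in KO quadriceps and 123 ± 22.2 in WT quadriceps.

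Over the 8 liver arrays, the 5 most like the shared probe set were Sfxn2, Adhfe1, Papss2, Ccnd3 and Gstz1 (r from 0.992 to 0.983), and those most like the Selenbp1 probe set were Ndrg2, Idh1, Gstz1, Papss2 and Adhfe1 (0.995 to 0.990), so that 3 of 7 were shared. Papss2, which makes the activated form of sulfate, averaged 226 ± 32.0 in KO liver and 1324 ± 121 in WT liver. Gstz1, an enzyme of tyrosine breakdown, averaged 969 ± 59.4 in KO liver and 2437 ± 144 in WT liver. Over the 8 quadriceps arrays, the genes were Gstm2, Bcat2, Mmut, Acot7 and Gstk1 for the shared probe set (0.988 to 0.982) and Tango2, Rbl2, Acot1, Bckdha and Aldh2 for the Selenbp1 probe set (0.996 to 0.980), with 0 of 10 shared. Bcat2 and Bckdha start the breakdown of branched-chain amino acids, and Bcat2 averaged 40.4 ± 4.35 in KO quadriceps and 159 ± 19.3 in WT quadriceps. Without array 8 of KO quadriceps, 0 of the 5 genes named for the shared probe set and 1 of the 5 named for the Selenbp1 probe set were again among the 5 most alike. These lists are thus only an account of which signals moved with the members on these arrays.

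Genes for the products of selenium-binding protein 1 and for selenium biology were read from the same fits, in 5 lists. Of all probe sets tested in liver, 4.29% were higher and 4.44% lower in KO (8.73% either way) at a limma adjusted p under 0.05, with a median difference of 0.03. In quadriceps 0.0589% were higher and 0.538% lower (0.597% either way), with a median difference of -0.15. Array 8 of KO quadriceps decided these shares: without it 4.46% were higher and 16.2% lower, with a median difference of -0.23. At an unadjusted p under 0.05 stood 22.2% of all probe sets in liver and 15.6% in quadriceps, the background for the unadjusted counts of the lists. Together with the genomic neighbours, 72 listed genes were on the array, of which 64 were tested in liver and 58 in quadriceps. A gene of a list was counted as higher or lower only where both group means reached the filter signal, which 5 of the genes tested in quadriceps and 0 in liver did not. Under this rule 4.17% of all probe sets were higher and 4.19% lower in liver. In quadriceps 0.0368% were higher and 0.449% lower. Without KO array 8 these shares were 3.6% and 15.8%, the background for every listed gene called only without that array. In liver 5 listed genes were higher and 12 lower in KO, and in quadriceps 0 were higher and 3 lower. When all 16 arrays shared 1 estimate of the spread, Gpx3, Dio1, Suox, Cth and Sardh kept their liver calls and the other 12 genes lost theirs. With no filter on low signal, Gpx3, Txnrd3, Msrb1, Scly, Srxn1 and Mthfd1 in liver and Tst and Aldh9a1 in quadriceps lost their calls. With no variance trend Cdo1, Msrb1, Mthfd1 and Scly in liver and Tst and Aldh9a1 in quadriceps lost theirs. Quantile normalization ended the calls on Msrb1 in liver and on Tst and Aldh9a1 in quadriceps. Single calls ended with 1 median for all arrays (Msrb1 in liver), with no scaling (Tst in quadriceps) and with a pseudocount of 1 (Aldh9a1 in quadriceps).

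The formaldehyde list held enzymes that oxidize formaldehyde, other aldehydes or its folate-bound form, or that release formaldehyde from sarcosine. In liver 0 of 8 tested genes were higher and 4 were lower in KO, 6 of the 8 stood at an unadjusted p under 0.05, and the list median was -0.35. Sardh, sarcosine dehydrogenase, which forms a formaldehyde equivalent, averaged 331 ± 64.4 in KO liver and 1748 ± 170 in WT liver (SD, n = 4 each), a difference of -2.36 (SE 0.13, limma adjusted p = 1.95e-07). Its KO arrays, 241 to 390, lay far below its WT arrays, 1559 to 1971. Aldh1l1, which oxidizes formyl-tetrahydrofolate, fell by 0.58 on the log2 scale, to 2253 ± 145 in KO liver against 3391 ± 297 in WT liver (limma adjusted p = 0.000479). Aldh2, which oxidizes acetaldehyde and other aldehydes, fell by 0.40, to 5508 ± 318 in KO liver against 7277 ± 271 in WT liver (limma adjusted p = 0.000855). Mthfd1, a folate enzyme, fell by 0.38 (limma adjusted p = 0.0433), but its groups overlapped and the call was kept in only 2 of 8 fits that left out 1 array. It was lost without WT arrays 1, 2 or 3 or KO arrays 5, 7 or 8.

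In quadriceps 0 of 7 formaldehyde list genes were higher and 2 were lower in KO, 4 of the 7 stood at an unadjusted p under 0.05, and the list median was -0.57. Aldh2 averaged 285 ± 78.7 in KO quadriceps and 1206 ± 123 in WT quadriceps, a difference of -2.05 (SE 0.22, limma adjusted p = 0.000141), and its KO arrays, 205 to 394, did not reach its WT arrays, 1041 to 1338. Without array 8 of KO quadriceps the difference was -2.21 (limma adjusted p = 5.57e-06). These are the values of its brightest probe set. The other two Aldh2 probe sets, which were much dimmer, gave 0.49 and 0.01 and did not pass. Aldh9a1, an aminobutyraldehyde dehydrogenase, averaged 59.9 ± 23.1 in KO quadriceps and 141 ± 25.6 in WT quadriceps (-1.09, limma adjusted p = 0.0468), and its call was kept without KO array 6 or 8 and lost without any other single array. Another, dimmer Aldh9a1 probe set gave -0.62 in quadriceps and did not pass (limma adjusted p = 0.189). Without array 8 of KO quadriceps, where 15.8% of all probe sets were lower, 5 of the 6 genes then tested were lower, the added ones being Adh5, the glutathione-dependent formaldehyde dehydrogenase (-0.72, limma adjusted p = 0.0141), the retinal dehydrogenase Aldh1a1 (-0.76, adjusted p = 0.0119) and Mthfd1 (-1.15, adjusted p = 0.00129), and Aldh9a1 gave -1.18 (adjusted p = 0.00512).

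The sulfur list held enzymes that make or oxidize sulfide or process methionine and cysteine. In liver 1 of 16 tested genes was higher and 4 were lower in KO, 11 of the 16 stood at an unadjusted p under 0.05, and the list median was -0.12. Suox, sulfite oxidase, averaged 580.5 ± 88.5 in KO liver and 1048 ± 189 in WT liver (-0.83, SE 0.14, limma adjusted p = 0.00196). Cth, cystathionine gamma-lyase, which makes cysteine and can release sulfide, averaged 2688 ± 547 in KO liver and 4711 ± 827 in WT liver (-0.81, SE 0.15, limma adjusted p = 0.00389). The sulfurtransferase Tst fell by 0.43 (limma adjusted p = 0.0142) and the cysteine dioxygenase Cdo1 by 0.32 (limma adjusted p = 0.0139). Got1, an aspartate aminotransferase that can also act on cysteine, averaged 3039 ± 221 in KO liver and 1957 ± 271 in WT liver (0.64, limma adjusted p = 0.00156). All 5 calls were kept when any 1 liver array was left out.

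In quadriceps 0 of 11 sulfur list genes were higher and 1, Tst, was lower in KO, with a list median of -0.24. At an unadjusted p under 0.05 stood 3, of which only Tst had both group means at or above the filter signal. Cth passed the filter only through WT and is not counted as lower. It averaged 1.10 ± 0.417 in KO quadriceps, below the filter signal of 24.1, and 56.6 ± 22.6 in WT quadriceps. Its difference, given as a description, was -2.04 with the pseudocount of 16, -4.73 with 1 and -0.87 with 64. Tst read 61.1 to 65.9 in KO quadriceps and 102 to 149 in WT quadriceps (-0.84, limma adjusted p = 0.0368). The call on Tst was kept without KO array 8 (-0.85, limma adjusted p = 0.00534) and lost without any other single array. Without KO array 8, Sqor, which oxidizes sulfide in mitochondria, was lower (-0.65, limma adjusted p = 0.0196).

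The hydrogen peroxide list held enzymes that form or remove it and the redox proteins that serve them. In liver 2 of 11 tested were higher and 1 was lower in KO, 4 of the 11 stood at an unadjusted p under 0.05, and the list median was 0.13. Glrx, a glutaredoxin, averaged 600 ± 70.7 in KO liver and 405 ± 34.0 in WT liver (0.55, limma adjusted p = 0.00644). Srxn1, the sulfiredoxin that restores oxidized peroxiredoxins, averaged 234 ± 26.2 in KO liver and 166 ± 22.6 in WT liver (0.46, limma adjusted p = 0.0339). With fluidics module as a block its adjusted p was 0.0654 by limma, and its call was lost without WT arrays 2, 3 or 4 or KO arrays 5, 7 or 8. The other Srxn1 probe sets, which were dimmer, gave 0.64, 0.44 and 0.39 in liver and did not pass. Sod1, which forms hydrogen peroxide from superoxide, averaged 2677 ± 126 in KO liver and 3512 ± 117 in WT liver (-0.39, limma adjusted p = 0.00189). Another, much dimmer Sod1 probe set gave -0.02 in liver and did not pass. In quadriceps 0 of 11 passed limma's test in either direction, 0 at an unadjusted p under 0.05, with a list median of -0.06; without KO array 8, Txn2, mitochondrial thioredoxin, was lower (-0.55, limma adjusted p = 0.0307).

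Selenoproteins carry selenium as selenocysteine, unlike the members. In liver 1 of 16 tested was higher and 3 were lower in KO, 7 of the 16 stood at an unadjusted p under 0.05, and the list median was -0.04. Dio1, the deiodinase that activates thyroid hormone, averaged 1355 ± 192 in KO liver and 2050 ± 60.4 in WT liver (-0.60, SE 0.10, limma adjusted p = 0.00163), and this call was kept when any 1 array was left out. Gpx3, the secreted glutathione peroxidase, averaged 131 ± 37.6 in KO liver and 77.3 ± 7.60 in WT liver (0.63, limma adjusted p = 0.0264), and its call was lost without WT array 2, 3 or 4. Txnrd3, a thioredoxin reductase, fell by 0.52 (limma adjusted p = 0.0372) and Msrb1, a methionine sulfoxide reductase, by 0.27 (limma adjusted p = 0.0445), each with a call lost in most fits that left out 1 array. With fluidics module as a block the limma adjusted p of Txnrd3 was 0.07. Txnrd3 kept its call without WT array 2 or 4 and Msrb1 without KO array 5. The other Txnrd3 probe sets, which were dimmer, gave -0.60 (limma adjusted p = 0.0241) and -0.33, which did not pass. Selenop, the plasma selenium carrier made in liver, averaged 7755 ± 442 in KO liver and 7931 ± 370 in WT liver, a difference of -0.03 (limma adjusted p = 0.794).

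In quadriceps 0 of 18 tested selenoproteins passed limma's test in either direction, 4 at an unadjusted p under 0.05, with a list median of -0.19. In the fit without KO array 8, 15.8% of all probe sets were lower and the median difference over all was -0.23. The thioredoxin reductase Txnrd1 (-0.64, limma adjusted p = 0.048) and the membrane proteins Selenos (-0.999, adjusted p = 0.00233) and Selenot (-0.49, adjusted p = 0.0473) were lower in it. The genes for handling selenium and building selenoproteins gave 1 higher and 0 lower of 7 tested in liver, 2 at an unadjusted p under 0.05, with a list median of 0.18. The one that passed was Scly, selenocysteine lyase, at 314 ± 69.0 in KO liver and 201 ± 37.7 in WT liver (0.60, limma adjusted p = 0.0364). Its groups overlapped and its call was lost without WT arrays 1, 2 or 4 or KO arrays 5, 7 or 8. In quadriceps 0 of 6 passed limma's test in either direction, 2 at an unadjusted p under 0.05, with a list median of -0.17, and 0 passed without KO array 8.

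**Figure D3:**
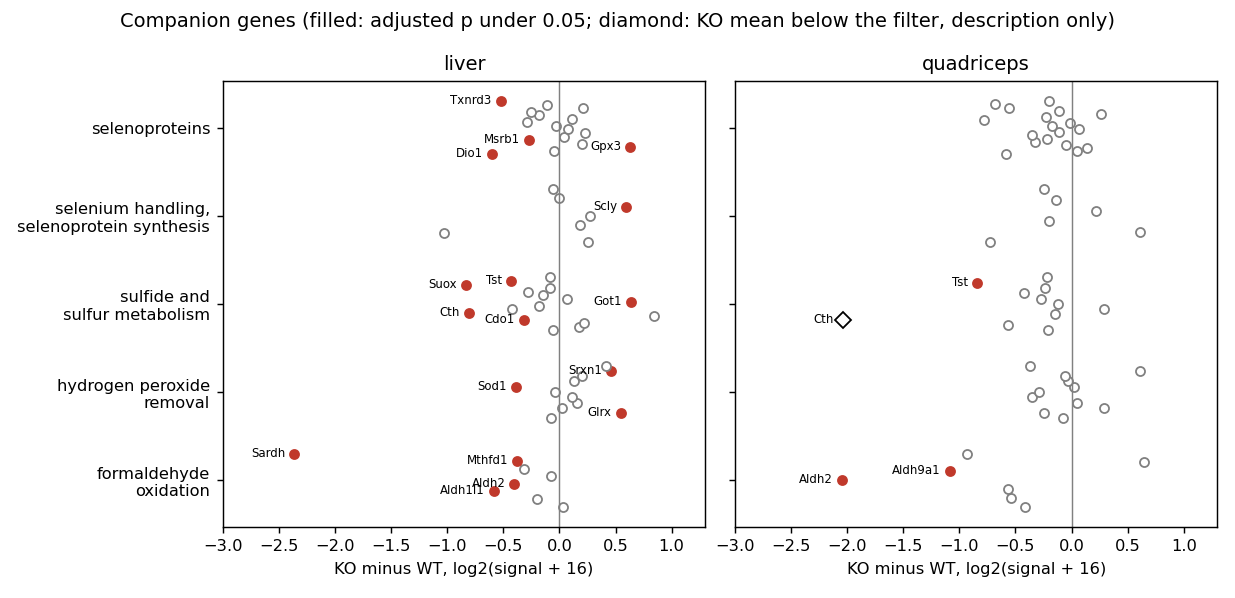
KO minus WT difference on the log2(signal + 16) scale (horizontal axis) of the genes tested in each of the 5 lists (rows), liver on the left and quadriceps on the right; filled points passed at an adjusted p under 0.05 and are named. The leftmost filled points are Sardh at -2.36 in liver and Aldh2 at -2.05 in quadriceps; the open diamond is Cth in quadriceps, whose KO mean lay below the filter and whose value of -2.04 is a description.

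The genes around the members were read next, since both lie on a short stretch of chromosome 3. Of the 13 nearest named genes, 5 on each side of each member with some shared, 6 were on the array. In liver 0 of 6 passed limma's test in either direction, 2 at an unadjusted p under 0.05, with a median of -0.10, and in quadriceps 0 of 5 passed, 1 at an unadjusted p under 0.05, with a median of -0.13. Psmb4, a proteasome subunit gene that lies between the members (-48.8 kb from the Selenbp1 start), averaged 1937 ± 167 in KO liver and 2210 ± 155 in WT liver, a difference of -0.19 (SE 0.08, limma adjusted p = 0.193). In quadriceps Psmb4 averaged 2046 ± 556 in KO and 1967 ± 83.6 in WT, a difference of 0.01 (SE 0.27, limma adjusted p = 0.984), and -0.11 without KO array 8. Rfx5, a transcription factor of MHC class II genes that starts 17.6 kb after the Selenbp1 start, averaged 114 ± 31.4 in KO liver and 94.2 ± 8.06 in WT liver, a difference of 0.21 (SE 0.17, limma adjusted p = 0.517). In quadriceps Rfx5 averaged 54.5 ± 11.8 in KO and 94.5 ± 8.92 in WT, a difference of -0.66 (SE 0.18, limma adjusted p = 0.124), and without KO array 8 it was lower by the test (-0.70, limma adjusted p = 0.0167). Mrpl9, a mitochondrial ribosomal protein gene, gave -0.42 (SE 0.13, limma adjusted p = 0.0759) in liver and -0.42 (SE 0.23, limma adjusted p = 0.37) in quadriceps. The neighbours' differences thus ran from -0.42 to 0.22 in liver and from -0.66 to 0.01 in quadriceps, beside -1.49 and -1.40 in liver and -2.10 and -2.37 in quadriceps for the members; the difference between neighbours and members was not tested.

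**Figure D4:**
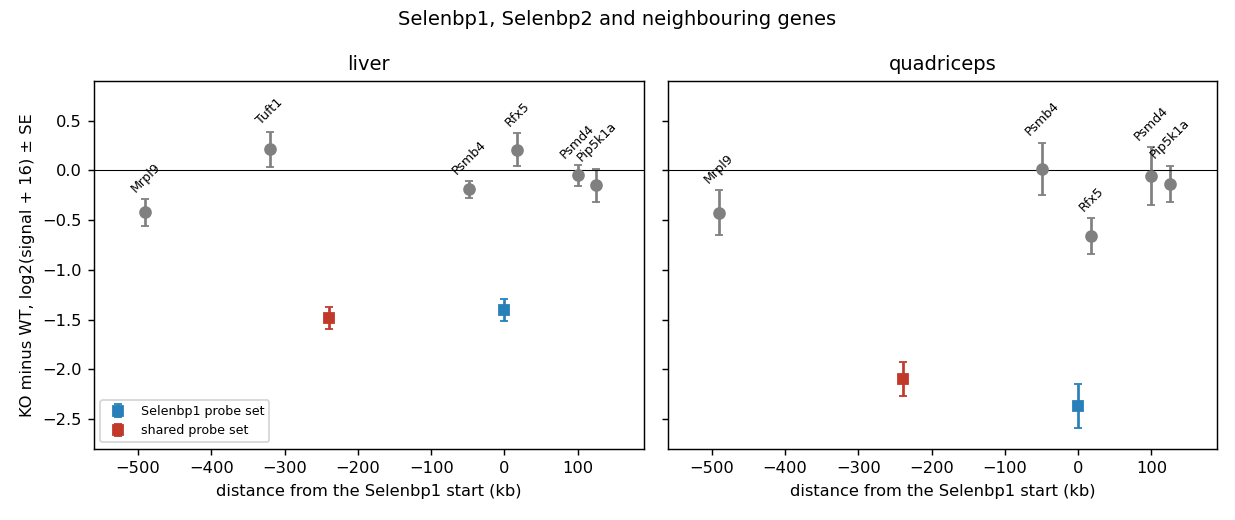
KO minus WT difference on the log2(signal + 16) scale with its SE (vertical axis) of the 2 probe sets (squares) and of the neighbouring genes on the array (circles), placed by distance in kb from the Selenbp1 start. The shared probe set is drawn at the Selenbp2 start although its symbol is Selenbp1. The squares lie between -1.40 and -2.37 and the circles between -0.66 and 0.22.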

How the data were processed

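RNA of 16 samples in 4 groups was measured on 1-colour arrays. The authors deposited 1 linear signal intensity per probe set, produced by GCOS (Affymetrix) per the submitters' processing notes; version, summary method and scaling: not given in the sources used here. The deposited experiment records gave other values, the fluidics station, module and scan day, which served as batch labels. Detection calls played no part. Precision is limited by the number of arrays.

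Members and lists were chosen with earlier results of these data known. Of the probe sets other than 64 controls, 20380 have 1 symbol, 691 several and 1555 none in the annotation of the platform, and symbols were updated through RefSeq (GRCm38.p6). Arrays of a tissue were scaled to a common median where their medians differed by more than 1.5 times. KO minus WT was fitted per tissue on log2(signal + 16), which understates changes of dim genes, with limma 3.58.1 in R 4.3.3 (lmFit, eBayes with a variance trend) over all probe sets at or above the 40th percentile, a signal of 25.1 in liver, 24.1 in quadriceps and 30.6 in the fit over both tissues. Benjamini-Hochberg adjustment ran over all probe sets tested, and the threshold was 0.05. The fits were tested on simulated data. A gene of a list was read by its brightest probe set with 1 symbol, and counted as changed only where both group means reached the filter signal, a rule added after the values were seen. Named were the 2 member probe sets, Klf15, up to 4 passing genes per list and tissue with the smallest p, and the 5 most alike genes; where fewer passed or a call changed without KO quadriceps array 8, other genes named (Adipoq, Selenop, Psmb4, Rfx5, Mrpl9 and those called only without that array) were chosen after their values were seen. The most alike genes were sought for both member probe sets, since none has the symbol Selenbp2. The cell type lists (hepatocyte, myofibre, adipocyte, erythroid, macrophage and endothelial) are sums over their markers. Alternatives were other pseudocounts, filters, scalings and batch terms, 1 fit over all arrays and leaving out each array. Promoters were aligned with Biopython 1.88, and plots were drawn with matplotlib 3.10.9.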

Additional observations from a re-analysis of the deposited data

Results flagged for a closer look

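Arrays standing apart from the other 3 of their group were looked for among the named genes in 52 groups of 4, and chance flags about 1 in 20 such groups. The shared probe set was high on KO liver array 6, at 805 against 621 to 639 on the other 3. It was also high on WT liver array 2, at 2276 against 1784 to 1831. In KO quadriceps it was high on array 7, at 54.3 against 34.8 to 36.8. Klf15 was low on WT quadriceps array 2, at 515 against 693 to 715. On KO liver array 7, Gpx3 was high at 187 against 110 to 117 and Srxn1 was high at 273 against 220 to 222.

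For 1 companion gene with both group means above the filter in both tissues, Aldh2, the KO minus WT difference itself differed between the tissues in limma's fit over 16 arrays, where 1.86% of all probe sets passed. Its liver difference less its quadriceps difference was 1.65 (SE 0.25, adjusted p = 0.000743), from -0.40 in liver and -2.05 in quadriceps. It was 1.71 with a pseudocount of 1, 1.48 with 64 and 1.99 with no scaling. This holds for the brightest Aldh2 probe set. The other Aldh2 probe sets, which were much dimmer, gave -0.33 and -0.46 in liver and 0.49 and 0.01 in quadriceps. None of these passed, and they do not repeat the more negative difference in quadriceps.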

How the results depend on the processing

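No difference of the members or of a gene past the threshold changed direction under any alternative run; the near-zero values of Psmb4 in quadriceps and Selenop in both tissues, which did not pass, took either sign. The members' liver differences moved by less than the spread between arrays, and with 1 array left out ranged from -1.57 to -1.40 (the shared probe set) and from -1.51 to -1.34 (the Selenbp1 probe set). In quadriceps the shared probe set gave -2.46 with a pseudocount of 1, -1.47 with 64, -2.33 with no scaling and -2.21 to -2.05 with 1 array left out. The Selenbp1 probe set gave -2.95 with a pseudocount of 1, -1.56 with 64 and -2.51 to -2.14 with 1 array left out. The liver minus quadriceps difference was 0.96 and 1.52 with a pseudocount of 1, 0.045 and 0.23 with 64, and 0.84 for the shared probe set with no scaling. With 1 array left out it ran from 0.53 to 0.72 and from 0.73 to 1.11. The pseudocount acts on low KO quadriceps signals by construction.

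Of companion genes and neighbours in liver, 5 were higher in KO, but 2 with no filter, 1 with all 16 arrays in 1 fit and 2 to 5 with 1 array left out; 2 were counted without WT array 2 or 4, and 3 without WT array 3 or KO array 5, 7 or 8. Of these genes 12 were lower, 4 with all 16 arrays in 1 fit and 9 to 12 with 1 array left out. In quadriceps 3 were lower, 1 with no filter, with quantile normalization or with no variance trend, 6 with all 16 arrays in 1 fit, 12 with scan day as a block and 1 to 12 with 1 array left out: 12 without KO array 8 and 1 without WT array 1, 2, 3 or 4 or KO array 5 or 7. In quadriceps 0 were higher (0 to 0 with 1 array left out), but 3 were, and 5 were lower, with quantile normalization and without KO array 8, chosen after seeing the data. Apart from those that remove an array or genes by construction, the cause was not tested.

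Over all probe sets, 582 were higher and 603 lower in liver, against 146 and 305 with all 16 arrays in 1 fit, and 340 to 579 higher with 1 array left out. In quadriceps 8 were higher and 73 lower, against 606 and 2196 without KO array 8, 586 and 2186 with scan day as a block, 122 and 417 with all 16 arrays in 1 fit, 14 and 141 with no scaling, 57 and 95 with module as a block, and 930 and 689 with quantile normalization without KO array 8. With 1 array left out, 0 to 606 were higher and 34 to 2196 lower. The median quadriceps difference was -0.15, against -0.44 with no scaling and -0.04 with quantile normalization.

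A replicate block, taking the sample number as shared by both tissues, left the liver minus quadriceps difference at 0.62 (SE 0.23) and 0.96 (SE 0.27). Deviations from group means were also correlated between same-numbered liver and quadriceps samples. Of these pairs, 0 of 8 correlated above 0.1 (from -0.08 to 0.04), and 2 of 8 correlated best with their own number. Tissues of the same animal need not share such deviations, so these values cannot tell whether a number stands for the same animal. Of the 5 most alike genes, 3 to 4 were named again with a pseudocount of 1 and 0 to 1 by Spearman rho. Signals near the filter limit what can be said of KO quadriceps, and station and genotype cannot be told apart.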

Other observations

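By limma's adjusted p, 4.29% of all probe sets tested in liver were higher and 4.44% lower in KO. Among the cell type lists, 1 of 10 macrophage markers was higher in KO liver (Marco, a scavenger receptor, 1.58 in log2 units). Likewise 1 of 10 endothelial markers was higher (Kdr, a growth factor receptor, 0.49). Of the hepatocyte markers 2 of 10 were lower (Tat, tyrosine aminotransferase, -0.67, and Cyp2e1, a cytochrome P450, -0.24). With lists this short, nothing about cell types is read from these counts. In quadriceps 0 markers of any list passed over all 8 arrays, where 0.0589% of all probe sets were higher and 0.538% lower. The macrophage markers summed to 4879 to 7978 in KO liver and to 4198 to 6297 in WT liver. The endothelial markers summed to 1150 to 1575 in KO liver and to 1049 to 1297 in WT liver. The adipocyte markers summed to 4346 to 5303 in KO liver and 4440 to 5728 in WT liver, where Adipoq lay below the filter. Most of these sums was the gluconeogenic enzyme Pck1, at 4459 in KO liver and 4652 in WT liver, so they do not measure fat cells.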
